A study of Mus musculus with 12 samples.

Results

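The Shroom, ROCK and non-muscle myosin genes are 10 genes that carry the main steps of actomyosin contraction at cell junctions. They were taken by symbol from the 39017 genes of the count table: *Shroom1*, *Shroom2*, *Shroom3*, *Shroom4*, *Rock1*, *Rock2*, *Myh9*, *Myh10*, *Myh14* and *Myl9*. Whole adrenals, freed of adherent fat, of 12 female mice aged 10 to 11 weeks on a mixed sv129-C57Bl/6 background gave 1 RNA library each, 6 from controls (Ctrl) and 6 from βCat-GOF animals. By the genotype labels Ctrl mice were ASCre/+ and βCat-GOF mice ASCre/+ with Ctnnb1fl(ex3)/+, so that all 12 carried the AS-Cre allele, but the titles of the control samples call them wild type. If the controls lacked Cre, effects of the Cre allele and of β-catenin could not be told apart. AS-Cre expresses Cre from the *Cyp11b2* locus in zona glomerulosa (zG) cells, and in βCat-GOF mice Cre removes an exon of 1 *Ctnnb1* allele, which stabilizes β-catenin. The study asked which transcripts differ between adrenals of these genotypes. Because the whole gland was used, each value averages the zG with the zona fasciculata (zF), medulla, capsule and vessels, and fewer cells of a type cannot be told apart from less RNA per cell.

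Cells that narrow 1 end to form a rosette or a fold do so by pulling on a belt of actin at their adherens junctions. Shroom proteins bind actin and recruit the kinases ROCK1 and ROCK2, which are activated by the GTPase RhoA. ROCK phosphorylates the regulatory light chains of non-muscle myosin II, of which *Myl9* encodes 1, and inhibits the phosphatase that reverses this. The motor itself is built from a heavy chain of type A (*Myh9*), B (*Myh10*) or C (*Myh14*), together with light chains. Shroom3 is best known for apical constriction in the closing neural tube. All of these steps can be regulated at the protein level, which transcript counts do not measure.

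The total count on genes was 14090378 to 25625494 in Ctrl libraries, with a median of 21705716, and 13484675 to 24951480 in βCat-GOF libraries, with a median of 20417937. Normalized counts are counts divided by DESeq2's size factor of the library. Summed over a list, the markers of the zF, medulla and zG were abundant in every mouse. Single markers could be low, such as *Hsd3b6* of the zG list at 93.9 normalized counts in the lowest βCat-GOF mouse. The summed normalized counts of 10 zF markers were at least 935949 in every mouse, those of 13 medulla markers at least 84919 and those of 11 zG markers at least 31367. A gene was called changed when edgeR gave a fold change above 1.4 at an adjusted p under 0.05 and the mean normalized count was above 100. Label stems were shared by 3 pairs of samples, which are counted here as separate mice, and if they were not, the p-values would in part measure technical spread. Label numbers of the mice differ between the genotypes, so anything that goes with those numbers cannot be told apart from genotype.

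The promoters of 8 of the 10 genes were taken from RefSeq (GRCm38.p6, 250 bases before to 50 after a start site), which gave 14 promoters. *Rock1* was left out of this search, and no promoter was matched for *Shroom1*. They were searched on both strands for the TCF/LEF letters CTTTGAA or CTTTGAT, and also for CTTTGTA or for CTTTGTT, the kind of site at which β-catenin acts through TCF/LEF factors, and for the CArG box, the site of serum response factor at genes of the actin cytoskeleton. Only 1 of the 14 held a TCF/LEF match, a *Shroom3* promoter at chr5:92809132-92809431 on the plus strand, 58 bases before the start site. Only 1 held a CArG box, the *Myl9* promoter at chr2:156775214-156775513 on the plus strand, 161 bases before the start site. These are shown because they are the only ones of the 14 promoters searched with a match, and the match is in capitals. Of 32851 promoters of the same length, 16.9% held a TCF/LEF match and 1.63% a CArG box. A match is a run of letters and not a measured binding site.
Shroom3 promoter: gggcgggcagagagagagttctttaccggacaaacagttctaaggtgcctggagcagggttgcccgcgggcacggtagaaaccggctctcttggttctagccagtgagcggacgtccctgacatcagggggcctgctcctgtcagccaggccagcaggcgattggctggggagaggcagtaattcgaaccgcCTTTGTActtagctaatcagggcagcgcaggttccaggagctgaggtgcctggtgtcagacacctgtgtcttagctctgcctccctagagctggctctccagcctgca
Myl9 promoter: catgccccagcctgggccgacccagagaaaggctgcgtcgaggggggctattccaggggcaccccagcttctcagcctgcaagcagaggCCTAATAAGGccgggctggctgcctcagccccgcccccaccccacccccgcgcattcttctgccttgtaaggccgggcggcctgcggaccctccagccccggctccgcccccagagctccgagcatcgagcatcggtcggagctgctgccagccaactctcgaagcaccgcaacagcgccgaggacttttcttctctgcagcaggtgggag

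None of the 10 genes was called changed in βCat-GOF adrenals by edgeR, against 2.35% of the 14953 genes tested (1.48% called higher and 0.869% lower). None passed the adjusted p alone either, against 3.68%. By DESeq2, which the authors used, 1 was called, *Shroom3*, against 3.79% of genes. Without adjustment 4 of the 10 had an edgeR p under 0.05, *Shroom3* and *Shroom4* with higher and *Shroom1* and *Myh14* with lower values in βCat-GOF adrenals, against 20.4% of all genes tested (9.73% with higher and 10.7% with lower values). In no gene of the 10 were the values of the groups fully separated, against 2.78% of genes. Of the log2 fold changes 6 were above 0 and 4 below, with a median of 0.04 (0.00 over all genes tested). The plot of normalized counts by mouse shows how far the groups overlapped for each gene.

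**Figure D1:**
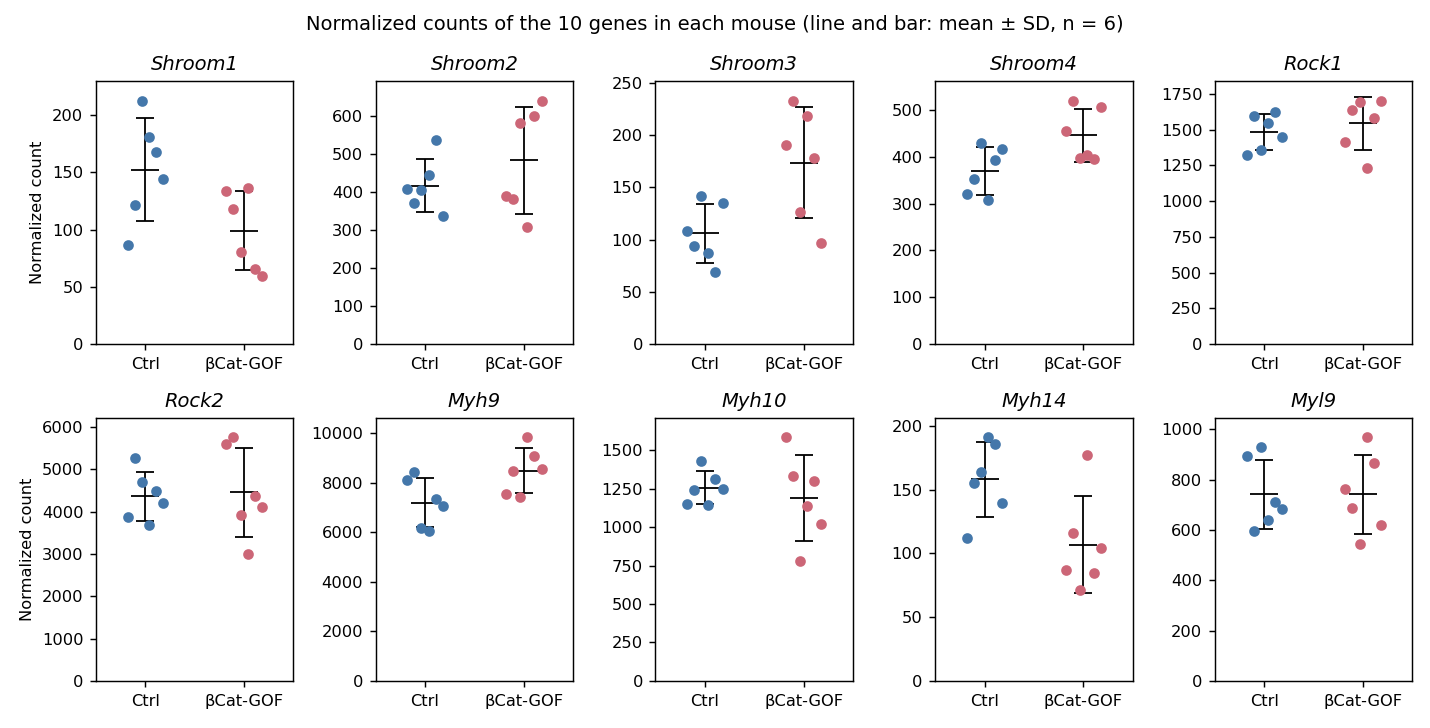
Normalized count (linear axes from 0) of each of the 10 genes in each of 6 Ctrl and 6 βCat-GOF adrenals, with 1 point per mouse and the mean ± SD drawn in black. The values of the groups overlap in all 10 panels, with 4 of 6 βCat-GOF mice above the highest Ctrl mouse for *Shroom3* and *Myh9* and 4 of 6 below the lowest for *Myh14*.

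Among the Shroom genes, which encode the actin-binding recruiters of ROCK, *Shroom3* (chr5:92683435-92965318, plus strand) had the largest difference. Its normalized count was 69.2 in the lowest Ctrl mouse, 101 at the median and 142 in the highest, and 96.4, 184 and 233 in βCat-GOF mice. In βCat-GOF adrenals 4 of 6 mice were above every Ctrl mouse, while βCat-GOF mice 3 and 6 lay within the Ctrl range. The means were 106 ± 28.3 and 174 ± 53.0 (SD, n = 6 each), a fold of 1.63 (95% interval 1.15 to 2.32; log2 0.71, SE 0.24) with an edgeR adjusted p of 0.119, which does not pass. The call depended on the tool and model. DESeq2 gave an adjusted p of 0.0404 at a log2 fold change of 0.71, and edgeR with 1 surrogate variable gave 0.0496 at 0.90, while the 12 edgeR fits that left out 1 mouse each gave adjusted p between 0.0684 and 0.215. Of the exon bases of *Shroom3*, 24.9% overlap 4932430I15Rik, a non-coding gene on the opposite strand, and the sources used here do not say whether counting used the strand, so reads of the overlapping stretch cannot be assigned to either gene for certain. The TCF/LEF match printed above is in a promoter of this gene, while another of its promoters, at chr5:92897743-92898042, held none. Such a match is found in 16.9% of all promoters, and its part in the *Shroom3* difference was not tested.

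*Shroom4* (chrX:6399854-6637448, plus strand), a relative that also binds actin, had a slightly higher mean in βCat-GOF adrenals. Ctrl mice ranged from 308 to 430 normalized counts (median 373) and βCat-GOF mice from 395 to 520 (median 429). All 6 βCat-GOF mice were above the Ctrl median and 3 above every Ctrl mouse. The fold of 1.20 (95% interval 1.01 to 1.43) had an unadjusted p of 0.0416 and an adjusted p of 0.226 (edgeR), so the change was not called.

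*Shroom2* (chrX:152609509-152769465, minus strand), known for its part in the cortical actin of endothelial and epithelial cells, was at 335 to 535 normalized counts in Ctrl mice (median 406) and at 307 to 640 in βCat-GOF mice (median 484). The βCat-GOF mice were spread on both sides of the Ctrl range, 3 above it and 1 below. The mean fold of 1.15 (95% interval 0.883 to 1.49) had an adjusted p of 0.563 (edgeR). Within the βCat-GOF group *Shroom2* and *Shroom3* were high in different mice. The 3 mice with the most *Shroom3* (mice 1, 2 and 4, with 190, 233 and 218) were the 3 lowest for *Shroom2* (388, 381 and 307). This order was noticed after the values were seen and was not tested.

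*Shroom1* (chr11:53457205-53467766, plus strand), a shorter member of the family, was lower on average in βCat-GOF adrenals. Ctrl mice ranged from 86.2 to 213 normalized counts (median 156) and βCat-GOF mice from 59.7 to 136 (median 99.3). No βCat-GOF mouse was above the Ctrl median, and 3 were below the lowest Ctrl mouse. The fold was 0.648 (95% interval 0.439 to 0.957), with an unadjusted p of 0.0316 and an adjusted p of 0.198 (edgeR), and with 1 surrogate variable the log2 fold change went from -0.63 to -0.28. An antisense gene, Gm12212, overlaps 3.07% of its exon bases.

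*Shroom1* went with the markers of the medulla from mouse to mouse. Values were compared as deviations from the group mean of log2 CPM, over 12 mice. CPM is the count relative to the library's total after TMM scaling. *Shroom1* correlated with the mean of 13 medulla markers, such as the catecholamine enzymes *Th* and *Dbh*, with Pearson's r = 0.935 (permutation p = 2e-05 within groups, 0.0016 after adjustment over the 80 relations between 10 genes and 8 marker lists). Spearman's ρ was 0.916 (permutation p = 7e-05, adjusted 0.0056). Without the 2 mice farthest from the median of the markers r was 0.939, and within Ctrl and βCat-GOF mice alone it was 0.977 and 0.986 (6 mice each). Of the 80 relations 3 passed by r and only this 1 also by ρ. All 13 markers correlated positively with *Shroom1*, with r from 0.540 to 0.981. The 3 genes most like it among 11421 were *Hand2* (r = 0.981), a transcription factor of sympathoadrenal cells that is itself in the medulla list, *Jph3* (0.975), a junctophilin of excitable cells, and *Gnb3* (0.972), a G protein β subunit. The medulla markers themselves tended to lower values in βCat-GOF adrenals, with 12 of 13 below 0 on the log2 fold scale, a median of -0.46 and none called. Their summed counts were 84919 to 255850 in Ctrl and 105514 to 200724 in βCat-GOF mice. Their part in the *Shroom1* difference was not tested.

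*Shroom3* followed no marker list as closely as *Shroom1* followed the medulla list. Over the 12 mice none of its relations to the 8 lists passed after adjustment. For the capsule and fibroblast list r was 0.543 (permutation p = 0.11, adjusted 0.511), and for the zG list 0.482 (permutation p = 0.18, adjusted 0.586). For the zF list ρ was -0.657 (permutation p = 0.039, adjusted 0.259). The zG list was also taken within each group. Against the mean of 11 zG markers its r was 0.496 in Ctrl mice (exact permutation p = 0.319) and 0.505 in βCat-GOF mice (exact permutation p = 0.311), both 0.319 after adjustment over the 2 groups, with ρ of 0.371 and 0.429 (exact p = 0.497 and 0.419, both 0.497 adjusted). Without the 2 mice farthest from the median of the markers r was 0.0244 and 0.297. With 6 mice a group, correlations of this size cannot be separated from 0. The zG markers were themselves higher in βCat-GOF adrenals, 10 of 11 with a log2 fold change above 0 and 4 called (*Agtr1a*, *Agtr1b*, *Dab2* and *Vsnl1*), at a median log2 fold change of 0.75. Their summed counts were 31367 to 46889 in Ctrl and 41885 to 77848 in βCat-GOF mice, and their part in the *Shroom3* difference was not tested. The zG marker below 0 was *Cyp11b2* (log2 fold change -0.18). A rise was not particular to the zG list. Of 10 zF markers 7 were above 0 and 3 below, with 2 called higher (*Akr1b7* and *Mrap*) and a median log2 fold change of 0.46. The genes most like *Shroom3* were *Ccdc28b* (r = 0.915), *Cenpv* (0.864) and *Psmb8* (0.859), and none of them is in a marker list used here.

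**Figure D2:**
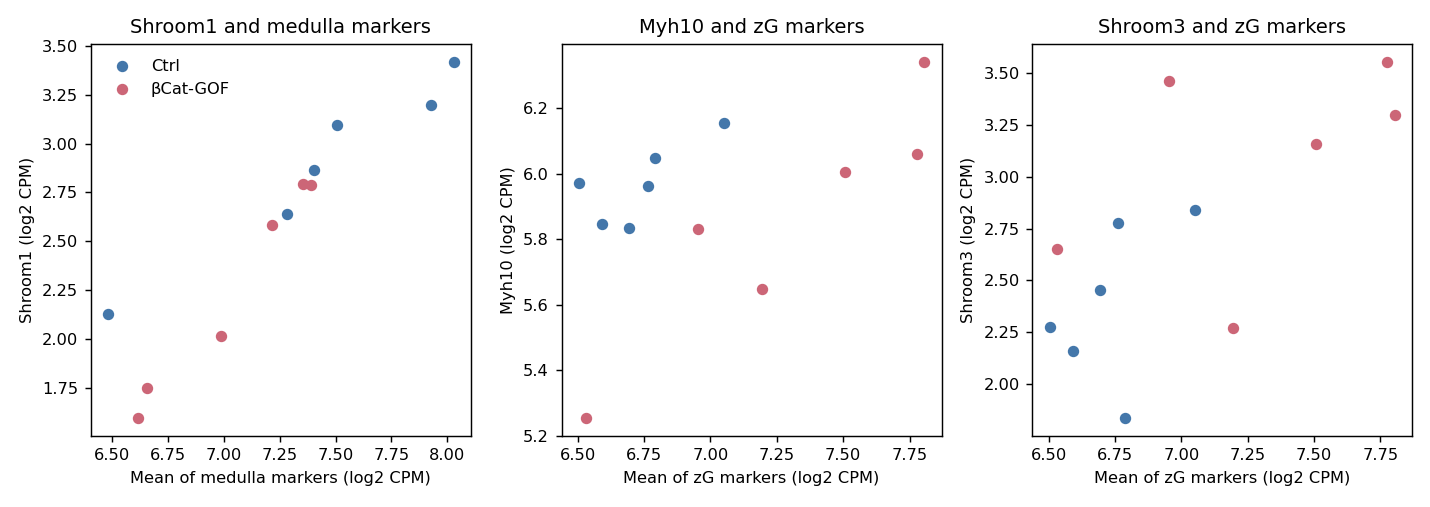
Level of a gene against the mean of a marker list (both log2 CPM), with 1 point per mouse and the 6 Ctrl and 6 βCat-GOF mice in different colours. *Shroom1* is higher in mice with higher medulla markers in both groups, and *Myh10* in mice with higher zG markers within each group, while *Shroom3* is scattered against the zG markers.

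The kinases differed little between the groups. *Rock1* (chr18:10064401-10182045, minus strand) had 1322 to 1624 normalized counts in Ctrl mice (median 1498) and 1230 to 1704 in βCat-GOF mice (median 1611). Its fold was 1.03 (95% interval 0.904 to 1.18; edgeR adjusted p = 0.805). *Rock2* (chr12:16894895-16987823, plus strand), the more abundant kinase, had 3678 to 5258 (median 4346) and 2991 to 5757 (median 4239), a fold of 1.02 (95% interval 0.811 to 1.27; edgeR adjusted p = 0.952). For both, the unadjusted interval of the fold lay between 0.714 and 1.4, so a change as large as the fold cut-off in either direction was outside it. The sign for *Rock2* turned negative in 4 of the 12 fits without 1 mouse. In *Rock1*, 10.2% of the transcript matches the gene Gm5374 at 97.1% identity, and reads of that stretch may have been left out by counting of uniquely mapping reads only. The genes most like *Rock1* were *Snx27* (r = 0.949) and *Btaf1* (0.947), and those most like *Rock2* were *Tcf4* (0.970), *Arid4b* (0.962) and *Ift88* (0.961).

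Of the myosin heavy chains, *Myh9* (chr15:77760587-77842175, minus strand) had the most counts and a slightly higher mean in βCat-GOF adrenals. Ctrl mice ranged from 6061 to 8444 normalized counts (median 7214) and βCat-GOF mice from 7439 to 9847 (median 8530). Every βCat-GOF mouse was above the Ctrl median, and 4 were above every Ctrl mouse. The fold was 1.17 (95% interval 0.999 to 1.38), with an edgeR p of 0.0508 (adjusted 0.247), while the exact permutation test over the 924 splits of the mice gave an unadjusted p of 0.0411. A rise of 1.4-fold was outside the interval. Its closest genes by deviation were *Ubap2l* (r = 0.972), *Prpsap1* (0.951) and *Eftud2* (0.950).

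*Myh10* (chr11:68691559-68816632, plus strand), which encodes the B chain, had nearly equal means but a wider spread in βCat-GOF mice. Ctrl mice ranged from 1143 to 1428 normalized counts (median 1246) and βCat-GOF mice from 777 to 1584 (median 1217). Only 1 βCat-GOF mouse was above the Ctrl range, and 3 were below it. The fold was 0.947 (95% interval 0.764 to 1.17; edgeR adjusted p = 0.805), and the coefficient of variation was 8.56% in Ctrl and 23.4% in βCat-GOF mice. The sign turned positive without βCat-GOF mouse 3, the lowest, and with 1 surrogate variable (log2 fold change 0.13).

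The spread of *Myh10* went with the zG and capsule markers by r, while its opposite relation to the zF markers did not pass after adjustment. Over the 12 mice its deviations correlated with the mean of 11 zG markers at r = 0.903 (permutation p = 0.0014, adjusted over the 80 relations 0.0485) and with that of 12 capsule and fibroblast markers at r = 0.880 (permutation p = 0.0018, adjusted 0.0485). The rank correlations did not pass after adjustment, at ρ = 0.846 (permutation p = 0.0068, adjusted 0.110) and 0.783 (permutation p = 0.012, adjusted 0.163). Without the 2 mice farthest from the median, r was 0.749 for the zG and 0.867 for the capsule list. Within Ctrl and βCat-GOF mice alone r was 0.740 and 0.924 for the zG list and 0.812 and 0.899 for the capsule list (6 mice each). With the mean of 10 zF markers the sign was opposite, at r = -0.830 (permutation p = 0.018, adjusted 0.205) and ρ = -0.881 (permutation p = 0.0031, adjusted 0.103), neither of which passed after adjustment, and r was -0.723 without 2 mice. A similar zF relation was seen for *Rock2*, at r = -0.779 (permutation p = 0.0098, adjusted 0.165) and ρ = -0.818 (permutation p = 0.0039, adjusted 0.103). It did not pass either. *Rock2* was related about as closely to the 12 macrophage and leukocyte markers, at r = -0.702 (permutation p = 0.012, adjusted 0.165) and ρ = -0.769 (permutation p = 0.0062, adjusted 0.110). For *Shroom4* the same list gave r = -0.652 (permutation p = 0.033, adjusted 0.241) and ρ = -0.734 (permutation p = 0.015, adjusted 0.168). None of these passed after adjustment. The βCat-GOF mouse with the lowest *Myh10*, mouse 3, also had the lowest mean of zG markers in its group. The genes most like *Myh10* were *Arhgef10* (r = 0.963), an exchange factor for small GTPases, *Lmo7* (0.954), an adherens junction protein that binds actin-linked partners, and *Hip1* (0.953), which links endocytosis to actin. *Lmo7* was in the list of apical constriction partners described below and was not called (log2 fold change 0.42, adjusted p = 0.271, edgeR).

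*Myh14* (chr7:44605803-44670843, minus strand), which encodes the C chain, was lower on average. Ctrl mice ranged from 112 to 191 normalized counts (median 159) and βCat-GOF mice from 71.6 to 177 (median 95.9). Among βCat-GOF mice 4 were below every Ctrl mouse, while mouse 4, at 177, was near the top of the Ctrl range. The fold was 0.668 (95% interval 0.484 to 0.921), with an unadjusted p of 0.0175 and an adjusted p of 0.155 (edgeR). Leaving out βCat-GOF mouse 4 brought the call, at a log2 fold change of -0.78 and an adjusted p of 0.0335, and DESeq2 on all mice gave an adjusted p of 0.0750. Its most alike genes were *Gaa* (r = 0.972), *Cep170b* (0.948) and *Uimc1* (0.920). Its r with the medulla markers was 0.594 (permutation p = 0.027, adjusted 0.235; ρ = 0.643, permutation p = 0.030, adjusted 0.215), and 0.529 without 2 mice.

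*Myl9* (chr2:156775420-156781658, plus strand), a regulatory light chain that is also abundant in smooth muscle, had the same mean in both groups. Ctrl mice ranged from 594 to 928 normalized counts (median 696) and βCat-GOF mice from 544 to 968 (median 724). The means of 741 ± 137 and 741 ± 158 gave a fold of 0.994 (95% interval 0.794 to 1.25; edgeR adjusted p = 0.983), and the sign of this near-zero difference turned in 5 of the 12 fits without 1 mouse. The most alike gene was *Cnn2* (r = 0.899), a calponin of contractile actin, followed by *Smim11* (0.894) and *Rem1* (0.890). Its r with the mean of 9 smooth muscle markers was 0.742 (permutation p = 0.011, adjusted 0.165; ρ = 0.671, permutation p = 0.029, adjusted 0.215), and 0.488 without 2 mice. Of those 9 markers 5 had log2 fold changes above 0 and 4 below, and none was called. Over all 12 genes of the list, tested or not, the summed counts were 3937 to 5107 in Ctrl and 4352 to 6298 in βCat-GOF mice. The CArG box printed above is in the promoter of this gene.

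For 5 of the 10 genes, *Rock1*, *Rock2*, *Myh9*, *Myh10* and *Myl9*, there was an unadjusted 95% interval of the fold that lay wholly between 0.714 and 1.4. The intervals of the other 5 reached past this range on 1 side. Spread between mice, as the coefficient of variation of normalized counts, ran from 8.50% (*Rock1*) to 29.5% (*Shroom1*) in Ctrl and from 10.8% (*Myh9*) to 35.4% (*Myh14*) in βCat-GOF mice. It was larger in βCat-GOF mice for 8 of the 10 genes, with *Shroom4* and *Myh9* as the exceptions. The share of all genes with a larger spread in βCat-GOF mice was not counted, so this is not shown to be particular to the 10.

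**Figure D3:**
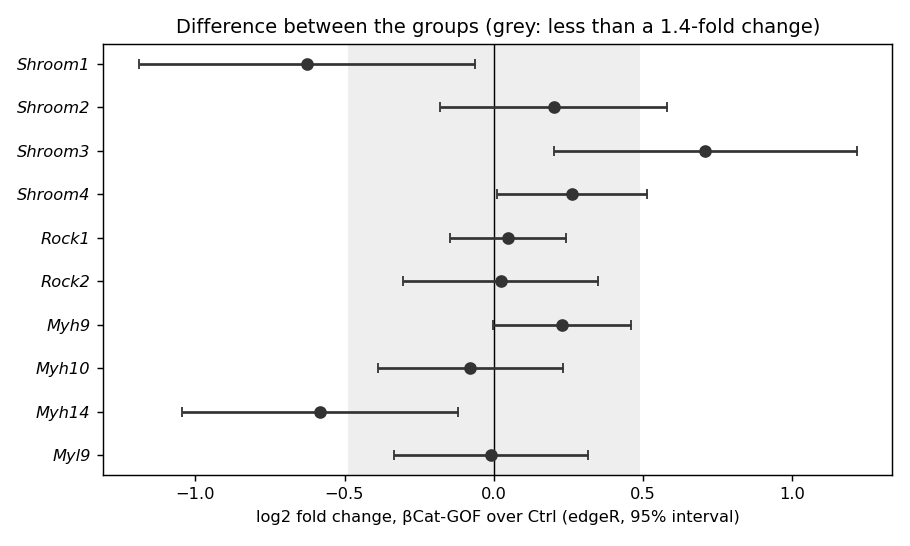
Log2 fold change of each gene, βCat-GOF over Ctrl, with points at the edgeR estimate and bars for its unadjusted 95% interval (6 mice in each group). The shaded band marks changes smaller than 1.4-fold, and the intervals of *Rock1*, *Rock2*, *Myh9*, *Myh10* and *Myl9* lie inside it.

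Levels of different genes were compared as RPKM, the reads of a gene per kilobase of its exons, scaled for the total of the library, with all exons of a gene merged. In Ctrl adrenals *Myl9* (31.9) and *Myh9* (27.9) were the most abundant and overlapped in range. They were followed by *Rock2* (15.7), *Myh10* (6.00) and *Rock1* (4.10), each separated from its neighbours in every mouse. The Shroom genes and *Myh14* came last, with *Shroom2* at 2.49, *Shroom4* at 2.08, *Shroom1* at 1.66 and *Myh14* at 1.09, each overlapping the next, and *Shroom3* at 0.400 below all of them. In βCat-GOF adrenals the order of the means was the same except that *Myh9* (32.7) was above *Myl9* (31.8), but fewer neighbours were separated. *Myh10* (5.68) overlapped *Rock1* (4.24), *Rock1* overlapped *Shroom2* (2.86) and *Shroom3* (0.654) overlapped *Myh14* (0.732), while *Shroom4* no longer overlapped *Shroom1*. *Shroom3* had the lowest mean in both genotypes with merged exons, but its merged exons are much longer than its longest transcript. By the length of the longest transcript *Myh9* (48.5) was above *Myl9* (32.9) and *Rock1* (11.5) above *Myh10* (8.06) in Ctrl adrenals, and *Shroom3* (1.28) was above *Shroom1* (1.09) and *Myh14* (0.819) in βCat-GOF adrenals, so these orders depend on the gene model.

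Within families 1 gene dominated the kinases and the heavy chains, and the Shroom genes were more even. *Rock2* made up 79.2% ± 2.21 of the summed *Rock1* and *Rock2* RPKM in Ctrl and 78.5% ± 3.62 in βCat-GOF mice (each a mean with its SD, n = 6). *Myh9* made up 79.5% ± 3.08 of the non-muscle heavy chains in Ctrl and 83.7% ± 3.22 in βCat-GOF adrenals, *Myh10* 17.3% ± 2.49 and 14.5% ± 3.32, and *Myh14* 3.16% ± 0.812 and 1.84% ± 0.486. The Shroom family was shared by *Shroom2* (37.7% and 40.2%), *Shroom4* (31.6% and 35.2%), *Shroom1* (24.6% and 15.3%) and *Shroom3* (6.12% and 9.31%). The *Shroom3* share ran from 3.48% to 7.97% in Ctrl and from 4.74% to 12.9% in βCat-GOF mice, and that of *Shroom1* from 16.8% to 30.1% and from 8.45% to 23.1%. By the longest transcript the *Shroom3* share was 10.6% and 15.5%, against 22.0% and 13.2% for *Shroom1*, so which of these is the smallest in βCat-GOF adrenals depends on the gene model. These shares were not tested.

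**Figure D4:**
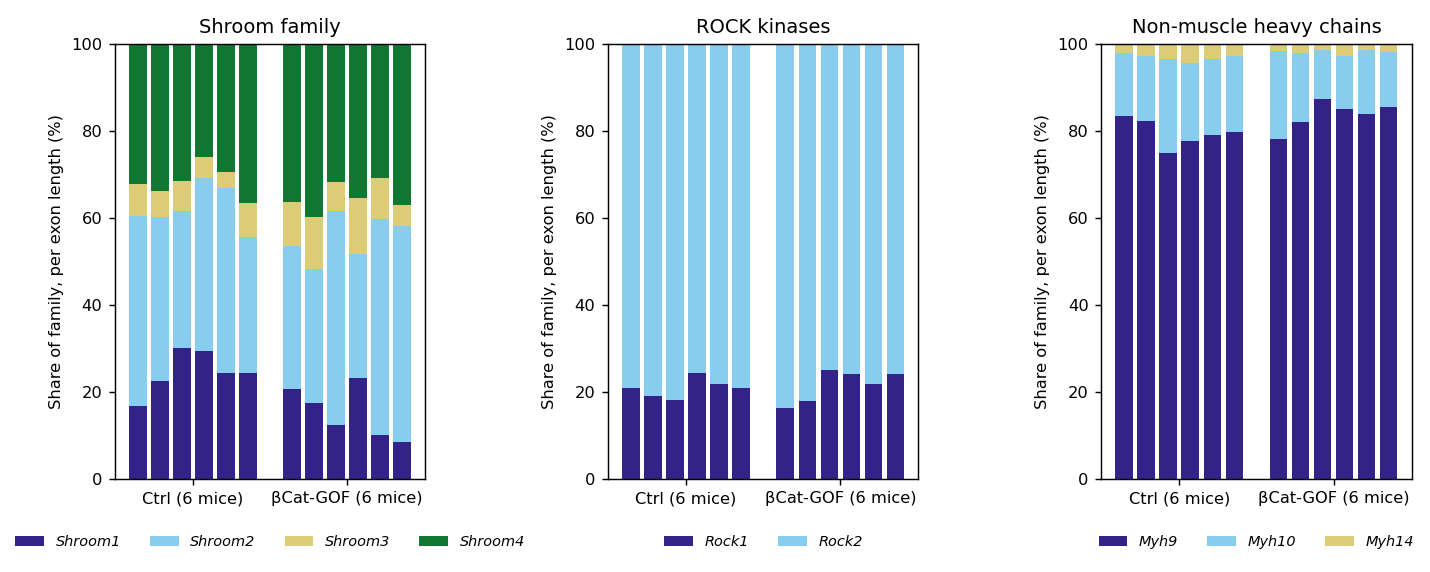
Share of each gene in the summed RPKM of its family (percent, stacked to 100) for the 4 Shroom genes, the 2 ROCK kinases and the 3 non-muscle heavy chains, with 1 bar per mouse, 6 Ctrl on the left and 6 βCat-GOF on the right. *Rock2* and *Myh9* take most of their families in every mouse, and *Shroom3* has the smallest mean Shroom share in both groups with merged exons (not in βCat-GOF mice by the longest transcript).

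The genes around this core were counted from 5 lists with 95 genes, all of which were tested. Together 66 had log2 fold changes above 0 and 29 below, 3 were called higher and none lower. Of all genes tested 1.48% were called higher and 0.869% lower, and their median log2 fold change was 0.00. At these shares few or no calls would be found in lists of this size. Upstream, 23 genes of the RhoA switch (the GTPases, their exchange factors and GTPase-activating proteins) had 14 above 0 and 9 below, a median log2 fold change of 0.02 and none called. The smallest p in that list were those of *Gem*, a small GTPase that restrains ROCK (log2 fold change 0.72, edgeR adjusted p = 0.263), and of *Rhoc*, a close relative of RhoA (0.19, adjusted p = 0.431). *Gem* varied widely in βCat-GOF adrenals, from 617 to 3831 normalized counts against 840 to 1424 in Ctrl.

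Alongside ROCK, 20 light chains, other light chain kinases and phosphatase subunits had 12 above 0 and 8 below, a median of 0.08 and none called. *Cdc42bpb*, the kinase MRCKβ, which phosphorylates the same light chains as ROCK, had the smallest p. It went from 1987 to 2424 normalized counts in Ctrl to between 2532 and 3688 in βCat-GOF mice, without overlap, and passed the adjusted p of 0.05 (0.0156, edgeR) with a log2 fold change of 0.44 (SE 0.09), which is below the fold cut-off. *Ppp1r14c*, an inhibitor of the phosphatase PP1, was next (log2 fold change -0.50, adjusted p = 0.154, edgeR).

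Downstream, 17 of 21 regulators of actin filaments had log2 fold changes above 0, with a median of 0.14, and 1 was called. This was *Daam2*, a formin of Wnt signalling that nucleates actin filaments, at 515 to 898 normalized counts in Ctrl and 909 to 2735 in βCat-GOF mice (log2 fold change 1.27, SE 0.27, edgeR adjusted p = 0.0188). Of 14 actins, tropomyosins and crosslinkers 12 were above 0, with a median of 0.18, and *Tpm4*, a tropomyosin of non-muscle filaments, was called (2435 ± 403 in Ctrl, 4099 ± 1035 in βCat-GOF, SD, n = 6 each; log2 fold change 0.74, SE 0.17, edgeR adjusted p = 0.0259). Of 17 partners in apical constriction 11 were above 0 and 6 below, with a median of 0.05. *Ajuba*, a LIM protein that binds α-catenin at adherens junctions, was called higher, at 698 to 1154 normalized counts in Ctrl and 1462 to 2733 in βCat-GOF mice (log2 fold change 1.19, SE 0.19, edgeR adjusted p = 0.00413). The values of *Daam2* and of *Ajuba* in the groups did not overlap. These 3 of 95 called genes stand beside 1.48% of all genes tested that were called higher, and no test was made of the lists. The lists were chosen with earlier results of these data known, so the count cannot show an enrichment.

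**Figure D5:**
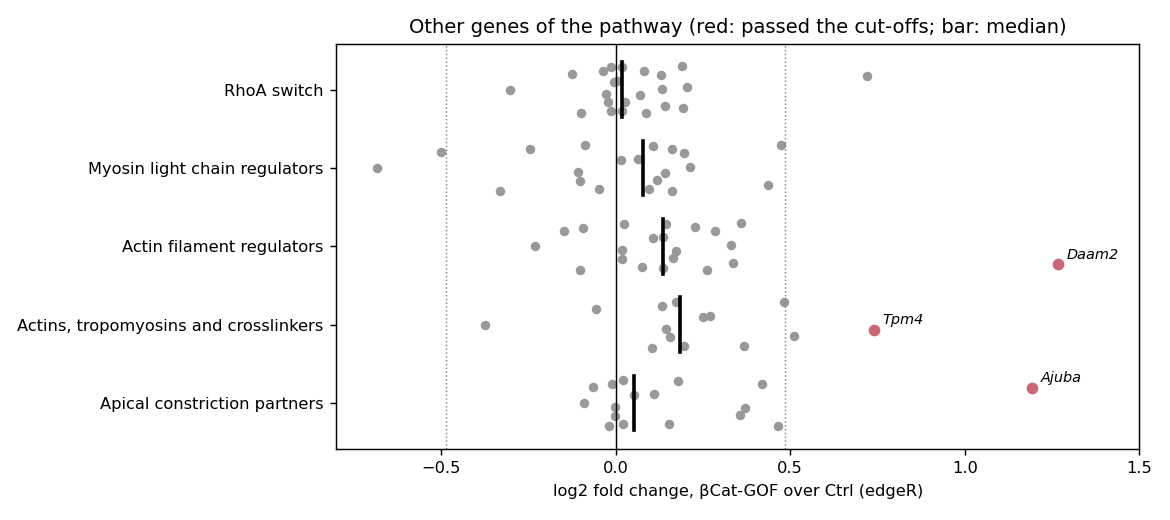
Log2 fold change (βCat-GOF over Ctrl, edgeR) of the 95 tested genes in 5 lists around the Shroom, ROCK and myosin core, with 1 point per gene, black bars for list medians and dotted lines at 1.4-fold. The medians lie between 0.02 and 0.18, and the 3 genes that passed the cut-offs (*Daam2*, *Tpm4* and *Ajuba*) are all to the right.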

How the data were processed

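Whole-adrenal RNA from 6 Ctrl and 6 βCat-GOF mice was sequenced after TruSeq mRNA preparation, 1 library per labelled mouse. The authors used STAR for alignment to mm10 and featureCounts 1.4.4 to count reads with a unique position on each gene. They deposited these counts without normalization, with a second deposited table of signal, the same counts after division by a factor of the library (their DESeq2 was version 1.6.3 per the labels). The annotation release and strand setting are not given in the sources used here. All columns were mapped (0 left out), and 966 of the 39017 identifiers have no symbol.

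Counts were tested with edgeR 4.0.16 (TMM, filterByExpr, quasi-likelihood, two-sided, Benjamini-Hochberg over 14953 genes) in R 4.3.3, with DESeq2 1.42.0 and sva 3.50.0 as alternatives, the use of the authors' factors, other filters, and mice left out. Intervals are 95% and unadjusted. Permutation tests are two-sided: exact over all splits or pairings within a group of 6, or 100000 shuffles within groups for the 80 relations to marker lists, a comparison chosen after values were seen. The smallest p these shuffles can give is 1e-05. Log2 CPM used TMM-scaled totals and a prior count of 2. RPKM used TMM-scaled totals and GENCODE M21 exons (GRCm38). Copies were searched with blastn 2.17.0. At these depths 3 counts are 0.117 to 0.222 CPM, and counting error adds to the spread of low genes.

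The 10 genes and the lists were chosen with earlier results of these data known. Named are all 10, from each list described the called genes or else those with the 2 smallest p, and per member the 3 genes with the highest r of log2 CPM deviations from the group mean among genes with mean above 100. For *Rock1* 1 of these 3 is not reported here. Label stems are shared by 3 pairs of mice, whose counts differed by more than sampling noise (chi-square per degree of freedom 41.9 to 45.9, against 16.8 to 145 in 27 other pairs). They were thus not 1 library deposited again and each was kept, but this does not show that they came from separate animals, and a fit without them was an alternative. The labels do not say whether mice shared a litter. On simulated counts, edgeR recovered 91 of 100 genes changed by a log2 of 1 and 99 of 100 by 2, with 13 false calls among 14818 genes. DESeq2 recovered 96 and 99 with 42 false calls among 14953. Recovery was scored by an adjusted p under 0.05 alone, without the fold and mean cut-offs. Changes below a log2 of 1, as in all 10 genes, were not simulated, so recovery at their size is not known. Figures were drawn with matplotlib 3.10.9.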

Additional observations from a re-analysis of the deposited data

How the results depend on the processing

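With all mice, *Shroom3* was called by DESeq2 (0.71, adjusted p = 0.0404) and with 1 surrogate variable (0.90, adjusted p = 0.0496) and by no other alternative, and *Myh14* only without βCat-GOF mouse 4 (-0.78). None of the other 8 genes was called under any alternative. Leaving out each mouse in turn gave log2 fold changes from 0.61 to 0.82 for *Shroom3*, from -0.78 to -0.49 for *Myh14*, from -0.052 to 0.111 for *Rock2* (reversed in 4 fits), from -0.174 to 0.0149 for *Myh10* (1 fit) and from -0.102 to 0.0724 for *Myl9* (5 fits). Direction also turned for *Rock2* without the mice whose label repeats a stem (-0.0691), for *Myh10* with the surrogate variable (0.13), and for *Myl9* with the authors' factors (0.00138), the surrogate variable (0.0406) and without the stem mice (0.16). The causes were not tested.

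Over all genes, 222 were called higher and 130 lower. DESeq2 called 361 and 280. The adjusted p alone left 228 lower, and leaving out the stem mice 238 lower. Without the mouse of another label number (βCat-GOF mouse 5) 78 were lower. Without 1 mouse each the counts ran from 144 (without Ctrl mouse 6) to 340 (without βCat-GOF mouse 1) higher and from 60 to 224 lower, for the same mice, with 86 and 61 lower without βCat-GOF mice 2 and 6. With the longest transcript as length, the shares in Ctrl and βCat-GOF were 10.6% and 15.5% for *Shroom3*, 28.9% and 29.7% for *Rock1*, 71.1% and 70.3% for *Rock2*, 83.7% and 87.1% for *Myh9*, 2.15% and 1.23% for *Myh14*, and 14.1% for *Myh10* in Ctrl. No paired analysis was possible because the labels give the groups no shared replicate numbers. The intervals of *Shroom3*, *Shroom1* and *Myh14* were wide, which limits the detection of a fall or rise in genes at their level. The parts of spread between mice and of counting error in this width were not separated.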

Other observations

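Of 11 other class II myosin heavy chains, those of smooth and striated muscle, 2 had enough counts to be tested. *Myh11*, the smooth muscle heavy chain, had 196 to 239 normalized counts in Ctrl and 89.5 to 190 in βCat-GOF mice (log2 fold change -0.51, SE 0.17, edgeR adjusted p = 0.116), and so was not called although the values of the groups did not overlap. *Myh7b* had 9.0 ± 4.8 and 16.4 ± 9.84 (SD, n = 6 each; edgeR adjusted p = 0.362). Of the smooth muscle markers, *Kcnmb1*, a subunit of a potassium channel, had a log2 fold change of -0.94 at an edgeR adjusted p of 0.0492 but a mean normalized count below 100, and *Synpo2*, an actin-binding protein, had 0.85 (adjusted p = 0.0939, edgeR). These markers differed in sign.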
